A study of Homo sapiens with 2 samples.

Results

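Integrins, laminins and collagens were described in the human colorectal adenocarcinoma cell line HCT15, which is an established line. The genes were found by symbol, as those whose name begins like an integrin alpha or beta subunit, a laminin alpha, beta or gamma chain, or a numbered collagen chain. This gave 90 of 19775 genes, each represented by its brightest probe set (by the mean over the arrays) among those with a single gene symbol. Of the 90 genes, 78 were true members of the families, with 25 integrin subunits, 10 laminin chains and 43 collagen chains. The other 12 only shared the start of the name, among them integrin-binding proteins and antisense transcripts, and are given apart. One array held RNA of HCT15 cells given Cas9 and a guide RNA that targets ARID3B, labelled ARID3B knockout, and 1 array held RNA of HCT15 cells that received a control. Both cultures were grown in RPMI with fetal bovine serum, and the sources used here do not say whether the edited cells were a clone or a pool. ARID3B is a protein that binds AT-rich DNA through its ARID domain, and the comparison asks which transcripts differed after its targeting. With 1 array a group there was no replicate and no test, so every value below describes these 2 arrays.

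Integrins are cell-surface receptors made of 1 alpha and 1 beta subunit, and the pair decides which ligand is bound. Laminins are trimers of an alpha, a beta and a gamma chain that form the sheet of the basement membrane under an epithelium. Collagens are triple helices of 3 alpha chains. The fibrillar types build the stroma, type IV forms the network of the basement membrane, and a few types span the membrane of cells. In the colon, epithelial cells make laminins and hold to them by integrins, while most fibrillar collagen comes from fibroblasts.

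The values are on the log2 scale and come from RMA, in which the arrays are set to a common distribution, so a difference is relative to the other genes. A difference is the knockout-labelled value minus the control value, and 1 unit is 2-fold. A gene was compared when its higher value was at least 4.59, which is the median over non-control probe sets and is called the floor. This kept 12841 genes (64.9%), with a median difference of 0.04. As a yardstick, genes were put in 10 bins of mean expression, and the scaled median absolute deviation of their differences, called the spread, ran from 0.255 to 0.437. The transcript of the targeted gene was not lower on the array labelled knockout. Whether its protein was lost cannot be read from RNA values. ARID3B stood at 6.09 on the knockout-labelled and at 5.12 on the control array, so every direction here rests on the label alone, and the probe set may lie outside the edited part. The poly-A spike-ins, bacterial transcripts added to RNA before labelling, had 24 probe sets with a mean difference of -1.19. Scaling on them would move every difference up by 1.19, after which COL6A1 and COL27A1 alone among the compared integrin, laminin and collagen genes would stay below 0. All directions given below are therefore relative to the other genes measured.

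The promoters of 4 genes or gene pairs on which the results turn are shown first, so that the values can be read beside them. They were taken from RefSeq (build GRCh38.p14). COL4A1 and COL4A2, the chains of the ubiquitous type IV collagen, lie head to head and only one of them was above the floor, so the whole stretch between their start sites is shown (chr13:110307158-110307283, 126 bases, read along the COL4A2 strand). COL13A1 (chr10:69801656-69801905, + strand) was the one collagen chain past 2-fold higher on the knockout-labelled array, COL27A1 (chr9:114155287-114155536, + strand) was past 2-fold lower, and ITGA2 (chr5:52989102-52989351, + strand) differed most among integrins. For each of these 3 genes the 250 bases before the start site are shown. COL6A1, which had the widest gap downward, had no promoter in the source used and is not shown. Capitals mark the GC box GGGCGG, the TATA word TATAAA and the AT-rich word ATTAA, each searched on both strands.
COL4A1-COL4A2: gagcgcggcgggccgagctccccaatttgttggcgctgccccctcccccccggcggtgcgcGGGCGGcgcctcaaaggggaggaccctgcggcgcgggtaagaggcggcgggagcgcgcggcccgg
COL13A1: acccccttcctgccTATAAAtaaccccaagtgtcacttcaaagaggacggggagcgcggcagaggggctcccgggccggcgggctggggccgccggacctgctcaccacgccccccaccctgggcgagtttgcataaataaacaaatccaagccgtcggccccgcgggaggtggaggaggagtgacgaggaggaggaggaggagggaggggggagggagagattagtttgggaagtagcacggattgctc
COL27A1: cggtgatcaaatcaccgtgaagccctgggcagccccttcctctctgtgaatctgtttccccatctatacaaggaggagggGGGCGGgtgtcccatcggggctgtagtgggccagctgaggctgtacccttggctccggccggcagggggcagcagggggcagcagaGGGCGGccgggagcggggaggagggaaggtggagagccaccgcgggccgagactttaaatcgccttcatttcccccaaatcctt
ITGA2: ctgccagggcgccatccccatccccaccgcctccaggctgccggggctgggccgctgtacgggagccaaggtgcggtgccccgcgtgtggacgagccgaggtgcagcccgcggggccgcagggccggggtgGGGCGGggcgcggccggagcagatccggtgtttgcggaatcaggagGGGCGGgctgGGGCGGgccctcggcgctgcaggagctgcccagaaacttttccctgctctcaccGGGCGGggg

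The stretch between COL4A1 and COL4A2 held 1 GC box, COL27A1 held 2 and ITGA2 held 4, while COL13A1 held none. COL13A1 had 1 TATA word, which lay near the end of its stretch far from the start site. None of the 4 stretches held the word ATTAA, which was searched because ARID3 proteins are known to bind AT-rich DNA. Of the 78 subunits and chains, 55 had a promoter in the table. Over these, 30 held a GC box, 5 a TATA word and 8 the AT-rich word. Over all 35116 promoters of that table the shares were 42.6%, 10.7% and 22.7%. These matches describe letters in a short window and are not binding sites.

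A difference under 0.25 was found in 11 of 18 compared integrins (61.1%), 4 of 7 laminins (57.1%) and 6 of 13 collagens (46.2%), against 51.0% of all genes. Of the 78 subunits and chains, 38 were above the floor on at least 1 array and were compared, and 40 were under it on both. The share above the floor was 18 of 25 for integrins (72.0%), 7 of 10 for laminins (70.0%) and 13 of 43 for collagens (30.2%), against 64.9% of all genes. At the edge of the floor, COL9A1 (4.40 and 4.03) and ITGA2B (4.49 and 4.39) lay just under it, and COL26A1 (4.65 and 4.38) and COL23A1 (4.77 and 4.36) had 1 value just above. In these pairs of values the knockout-labelled array comes first, as in all that follow.

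Across the 38 compared genes, 1 was at least 2-fold higher on the knockout-labelled array, where 1.05% of all genes were, and 2 were at least 2-fold lower, where 3.79% were. All 3 were collagens, of which 1 of 13 was higher and 2 of 13 were lower. These are larger shares than among all genes, but they rest on 3 genes. The median difference was 0.03 for integrins, 0.10 for laminins and 0.10 for collagens, against 0.04 for all genes. The number with a difference above 0 was 10 of 18, 4 of 7 and 8 of 13, against 52.9% of all genes. Of the compared genes, 1 laminin and 5 collagens, among them COL6A1 and COL27A1, were above the floor on 1 array only. They entered through the array where they were higher, as did 832 of all 12841 genes. A difference larger than the spread was found in 13 of 38, or 34.2%, against 34.8% of all genes. By family this was 7 of 18 integrins, 1 of 7 laminins and 5 of 13 collagens. Of these collagens, COL5A2 and COL23A1 were inside the spread when their value under the floor was raised to it. In their medians the families thus lay close to the background, while the differences past 2-fold were all in collagens. This held for the brightest probe sets only. With the mean over all probe sets per gene, no collagen was past 2-fold in either direction. The differences below are those of single genes.

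**Figure D1:**
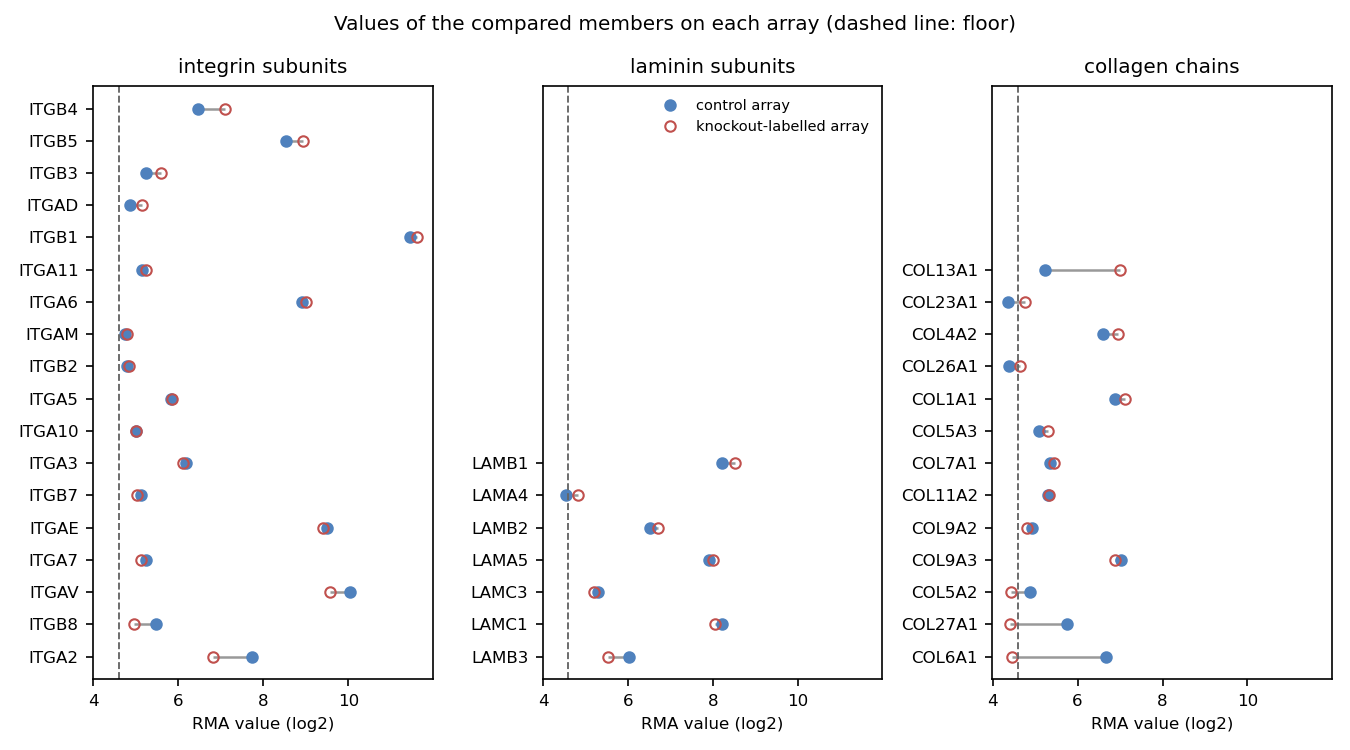
RMA log2 values (x axis) of the 18 integrin subunits, 7 laminin chains and 13 collagen chains above the floor, ordered by difference, with filled points for the control array and open points for the knockout-labelled array. Most pairs of points nearly touch, and COL13A1, COL27A1 and COL6A1 have the widest gaps, the last 2 with their knockout-labelled value left of the dashed floor at 4.59.

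Among collagen-binding integrins, ITGA2 was lower on the knockout-labelled array, relative to the other genes. ITGA2 encodes the alpha subunit that pairs with beta 1 as the main collagen receptor of epithelial cells. It stood at 6.80 on the knockout-labelled and at 7.73 on the control array, which is a difference of -0.93 or 1.90-fold. Its second probe set stood at 5.31 and 5.84, a difference of -0.53 in the same direction. The spread in its expression bin was 0.412. Of the other collagen-binding subunits, ITGA10 stood at 5.01 on both arrays and ITGA11 at 5.24 and 5.13, without such a gap. ITGA1 was under the floor with 3.06 and 3.12 and could not be compared.

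ITGB1, the beta subunit shared by most of these receptors, stood at 11.63 and 11.46, a difference of 0.17. Its next 2 probe sets above the floor both differed by 0.25. Thus ITGA2 was lower while its partner was slightly higher, the latter within the spread of 0.255 of its expression bin.

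Among ITGB4, ITGA6, ITGA3 and ITGA7, subunits of laminin-binding integrins, ITGB4 alone differed past its spread. ITGB4 encodes the long beta subunit that joins alpha 6 in the hemidesmosome, the anchor of epithelial cells to laminin. It stood at 7.09 against 6.47 on the control array, a difference of 0.62, above the spread of 0.437. All 3 of its probe sets above the floor were higher on the knockout-labelled array, the others by 0.68 and 0.34. ITGA6, its partner, stood at 9.01 and 8.91, and its second probe set at 7.94 and 7.97, so it differed by less than the spread of 0.366. ITGA3, which pairs with beta 1 to bind laminin, stood at 6.10 and 6.18, and ITGA7, the laminin receptor best known from muscle, at 5.11 and 5.23.

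The analysed subunits of the alpha V receptors were divided. ITGB6, another partner of alpha V, was not among the genes analysed. ITGAV encodes the alpha subunit of receptors that recognise the RGD sequence of fibronectin, vitronectin and latent TGF-beta. Its only probe set stood at 9.56 and 10.04, a difference of -0.48 against a spread of 0.366. ITGB8, a partner that binds latent TGF-beta, was lower too, with 4.94 and 5.48, a difference of -0.53 against a spread of 0.257. The difference was -0.20 when 64 linear units were added to both arrays, which weakens differences of dim genes. The same setting gave -0.45 for ITGAV, -0.65 for ITGA2 and 0.39 for ITGB4.

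ITGB5, the partner in the vitronectin receptor, went the other way with 8.93 and 8.53, a difference just past the spread of 0.388. With 64 linear units added to both arrays the ITGB5 difference was 0.35. Its 3 probe sets above the floor differed by 0.40, 0.17 and 1.19, the last standing at 5.87 and 4.68, so they were all higher but by different amounts. The remaining one, under the floor on both arrays, differed by -0.12. ITGB3, known from platelets and vessels, stood at 5.59 and 5.24, a difference of 0.35 against a spread of 0.343, but its other probe set above the floor differed by -0.07. ITGA5, the fibronectin receptor subunit, stood at 5.84 on both arrays.

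Subunits best known from blood cells differed little. ITGAE, the subunit that with beta 7 binds E-cadherin on intraepithelial lymphocytes, stood at 9.40 and 9.50, and ITGB7 at 5.03 and 5.12. ITGB2, the shared beta subunit of leukocyte integrins, stood at 4.83 and 4.79, with ITGAM at 4.79 and 4.73 and ITGAD at 5.15 and 4.86. Of these, ITGAD alone differed past its spread, by 0.29 against 0.257, in a single probe set. ITGAL, ITGAX and ITGA4 were under the floor on both arrays, as were ITGA2B, ITGA8 and ITGA9. Of 6 measured leukocyte markers 3 were above the floor (CD3E, CD79A and CD14). PTPRC, the pan-leukocyte antigen CD45, stood at 2.72 and 2.48, under the floor. The summed linear value of the 6 markers was 229 on the knockout-labelled array and 207 in the control. The labels name the HCT15 line alone and no other cell type. What gives rise to the values of these markers and of ITGB2, ITGAM and ITGAD was not tested.

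**Figure D2:**
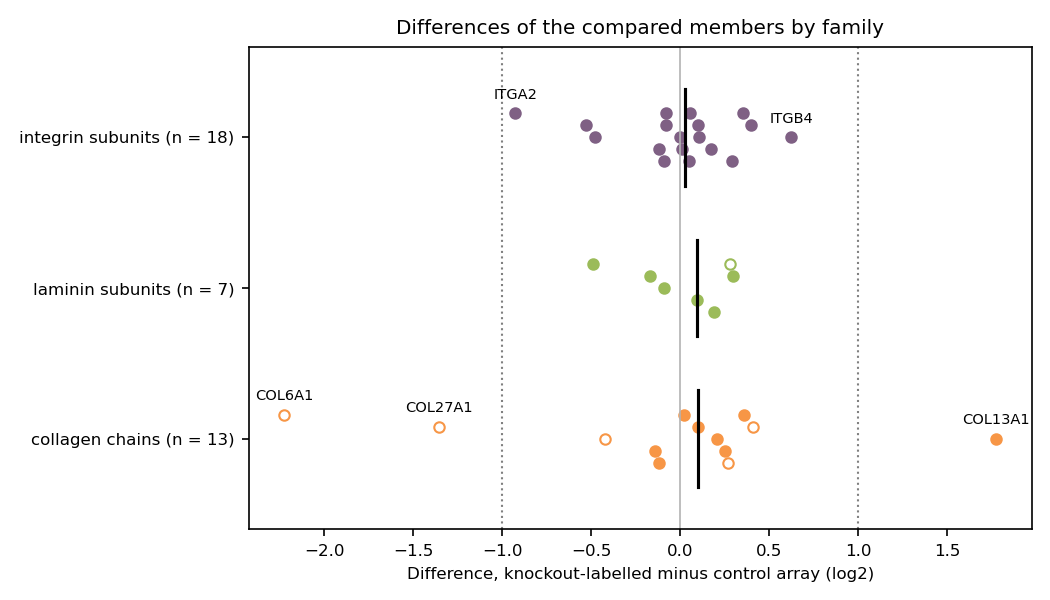
Difference in log2 RMA value (x axis), knockout-labelled minus control array and relative to the other genes, of each compared member by family, with the median as a black bar and dotted lines at 2-fold. Filled points were above the floor on both arrays and open points on 1, and only COL13A1, COL27A1 and COL6A1 lie past the dotted lines, which holds for this scaling and not for one on the poly-A spike-ins.

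The chains LAMA5, LAMB1 and LAMC1, which form a widespread epithelial laminin, differed by less than the spread. LAMA5, its alpha chain, stood at 7.998 and 7.90. LAMB1, its beta chain, stood at 8.52 and 8.22 and its second probe set at 8.25 and 7.95, a difference of 0.30 in each, against a spread of 0.388. LAMC1, its gamma chain, stood at 8.05 and 8.22 and in a second probe set at 7.73 and 7.68, so its probe sets differed in direction. LAMB2, the beta chain that can take the place of LAMB1, stood at 6.71 and 6.51. The 3 chains of this laminin were thus above the floor on both arrays, without a common direction.

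LAMB3, the beta chain of the hemidesmosomal laminin, was the laminin gene with a difference past the spread. It stood at 5.53 against 6.01 on the control array, a difference of -0.49 or 1.40-fold, against a spread of 0.343. That laminin is the ligand of integrin alpha 6 beta 4 in the hemidesmosome, so this chain was lower where ITGB4 was higher, relative to the other genes. The other chains of that laminin were not analysed here, and the single LAMB3 probe set gave no second reading. With 64 linear units added to both arrays the LAMB3 difference was -0.225. LAMA4, a chain of vessel laminins, stood at 4.82 and 4.54, the second of these under the floor. LAMC3 stood at 5.21 and 5.30. LAMA1, LAMA2 and LAMB4 were under the floor on both arrays, between 3.25 and 3.64.

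Most collagen genes were under the floor, as 30 of 43 stayed below it on both arrays, with values from 1.75 to 4.40. Among these were COL1A2 and COL3A1, major chains of stromal fibrils, COL6A2 and COL6A3 of type VI collagen, and COL4A1. Of 8 fibroblast markers only DCN (4.61 and 4.51) and THY1 (4.85 and 4.75) reached the floor, and LUM (2.22 and 2.11) and POSTN (2.56 and 2.60) were far under it. Their summed linear value was 118 on the knockout-labelled array and 108 in the control. Of 12 epithelial markers 9 were above the floor, among them EPCAM (12.23 and 12.19) and KRT18 (12.37 and 12.35), while KRT20, CDH17 and LGALS4 were under it. As the labels name no cells but those of the HCT15 line, these markers describe the line. The source of the collagen values was not tested.

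COL13A1, a collagen that spans the plasma membrane and is found at cell adhesions, was the chain with the widest gap upward. Its value was 7.001 against 5.23 on the control array, a difference of 1.78 or 3.42-fold, against a spread of 0.395. Its other 2 probe sets stood at 5.47 and 4.98, and at 5.46 and 4.74, differences of 0.49 and 0.72. All 3 agreed in direction, but the mean over them was 0.996. All 3 are of kinds that can match several transcripts or genes, so COL13A1 has no value once such probe sets are left out. COL23A1, another transmembrane collagen, stood at 4.77 and 4.36, with the control value under the floor, so that it was at least 1.13-fold higher, and COL25A1 was under the floor on both arrays. The transmembrane chain COL17A1 was not among the genes analysed.

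COL6A1, the first chain of the beaded filament collagen VI, had the widest gap downward. Its knockout-labelled value of 4.46 was under the floor and its control value was 6.68, a difference of -2.22. Set against the floor it was at least 4.26-fold lower. Of its 8 probe sets only 1 other was above the floor, at 4.55 and 5.11 (-0.56), and the remaining 6 were under it with differences from -0.10 to 0.24. The mean over all 8 was -0.29. COL6A2, the neighbouring gene on chromosome 21 and a partner in the same trimer, stood at 4.16 and 3.72, and COL6A3, which completes the trimer, at 3.66 and 3.72, all under the floor. A gap of this size was found in the brightest probe set of COL6A1 alone, and no other type VI chain was bright enough to compare.

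COL27A1, a fibrillar collagen of cartilage, had a knockout-labelled value of 4.40, under the floor, and a control value of 5.76. The difference was -1.36, and against the floor it was at least 2.25-fold lower. A second of its 5 probe sets showed a like gap of -1.32, but was itself under the floor on both arrays. The other 3 stood at 4.86 and 4.84, 4.87 and 4.81, and 3.99 and 4.20. The mean over all 5 was -0.56. COL27A1 was thus lower in 2 probe sets and nearly level in 2, both of these above the floor.

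COL1A1, the main chain of type I collagen, gave opposite readings. Its brightest probe set, one of the kind that can match several genes, stood at 7.12 and 6.87, a difference of 0.25. The other probe set above the floor stood at 3.17 against 5.64 on the control array, a difference of -2.47. Another, under the floor on both arrays, stood at 3.23 and 4.43, a difference of -1.20. The last 2 of the 5 stood at 4.25 and 4.21, and at 1.77 and 1.92, and the mean over all 5 was -0.70. No direction is given for COL1A1. Its partner chain COL1A2 stood at 3.84 and 3.96, under the floor.

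COL5A2, a chain of the minor fibrillar collagen V, stood at 4.44 and 4.87, a difference of -0.43 with the knockout-labelled value under the floor. Its second probe set stood at 3.98 and 5.18, a wider gap of -1.20 in the same direction. Set against the floor, COL5A2 was at least 1.21-fold lower in its brightest probe set, a difference of -0.28 that is inside the spread of 0.308. COL5A3 stood at 5.31 and 5.10, and COL5A1 was under the floor on both arrays. The mean over the 2 probe sets of COL5A2 was -0.82.

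The remaining collagens above the floor differed by less than 0.5. COL4A2 of the basement membrane stood at 6.95 and 6.59, a difference of 0.36 within the spread of 0.437, and its second probe set at 5.60 and 5.56. COL4A1, which shares the stretch of DNA printed above, stood at 3.58 on both arrays in its brightest probe set, under the floor, and at 2.93 and 2.52 in the other. The remaining type IV chains, COL4A3, COL4A4, COL4A5 and COL4A6, were under the floor. COL7A1, the anchoring fibril collagen, stood at 5.45 and 5.35. COL9A2 (4.80 and 4.93) and COL9A3 (6.89 and 7.03), chains of a collagen that coats cartilage fibrils, were level, as was COL11A2 (5.33 and 5.31). COL26A1 stood at 4.65 and 4.38.

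**Figure D3:**
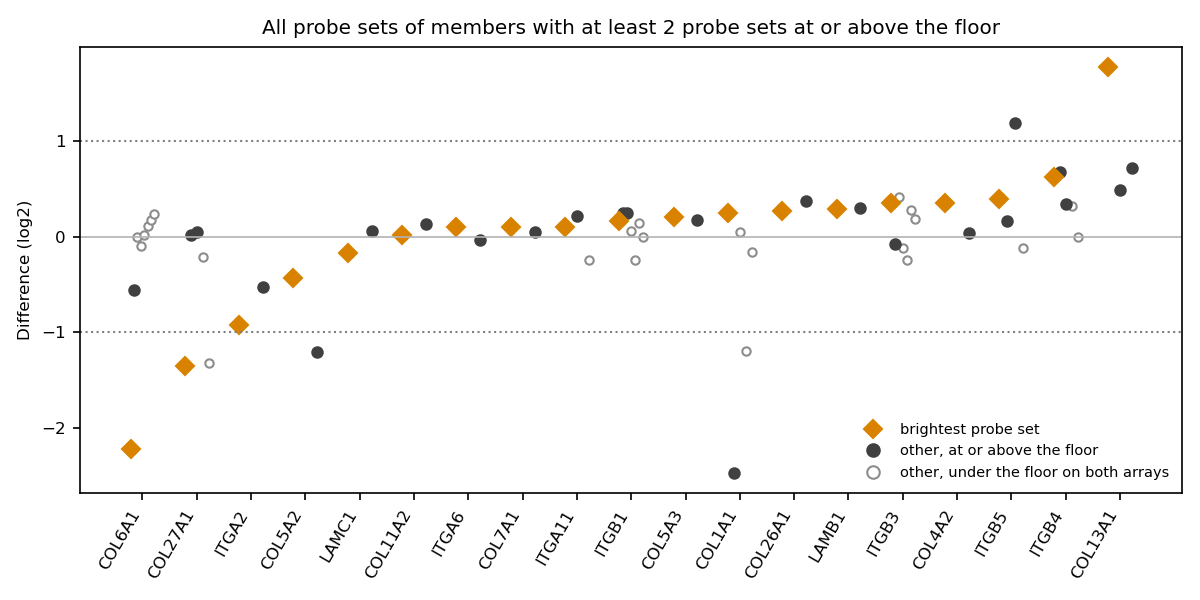
Difference in log2 RMA value (y axis), knockout-labelled minus control array and relative to the other genes, for every probe set of the 19 compared members that had 2 or more of them above the floor. Diamonds mark the brightest probe set, which represents the gene, and the points of COL1A1, COL27A1 and COL6A1 spread widely, while those of LAMB1 nearly coincide.

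Agreement between probe sets was mixed. Of 19 members that had 2 or more probe sets above the floor, 14 had all of these in 1 direction and 5 did not, namely COL1A1, COL27A1, ITGA6, ITGB3 and LAMC1. The same count was not made over all genes. The other 19 compared members had a single probe set above the floor and no such check. Genes that lie side by side on a chromosome were also set together. In the order of protein-coding genes, 10 pairs of members were neighbours, and in no pair were both genes above the floor. The share over all neighbouring genes was not computed, so this count is not read as a trait of these families. LAMB1 (8.52 and 8.22), for instance, lies next to LAMB4 (3.40 and 3.25), and ITGAX, under the floor, lies between ITGAM and ITGAD.

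Of the 12 genes that only share the start of a name, 6 were above the floor. ITGB1BP1, which binds the tail of integrin beta 1 and restrains its activation, stood at 9.01 and 9.45, a difference of -0.44 against a spread of 0.366, and its second probe set differed by -0.38. ITGB3BP, a centromere protein despite its name, stood at 9.23 and 9.26, and ITGB1BP2, a muscle chaperone, at 5.16 and 5.26. The pseudogene LAMB2P1 stood at 5.06 and 4.46, with the control value under the floor. The antisense transcripts ITGB8-AS1 (4.67 and 4.52) and LAMA5-AS1 (4.71 and 4.43) also had a control value under the floor. None was 2-fold apart.

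Genes that act with these families were taken from 7 lists. Inside the cell, 21 of 23 measured integrin adaptors and kinases were above the floor, with a median difference of 0.18. None was 2-fold higher, where 1.05% of all genes were, and 1 was 2-fold lower, where 3.79% were. In this and the following lists 0 or 1 gene was past 2-fold, too few to set a list apart from those shares. The lower gene was TNS3, a tensin that links integrin tails to actin, with 9.32 and 10.59 (-1.27), against a spread of 0.255, and its second probe set, under the floor, differed by -1.01. FERMT1, the epithelial kindlin that activates integrins, was lower with 7.44 and 8.24 (-0.80). PXN, the adaptor paxillin, was higher with 7.84 and 7.05 (0.79), and ILK, the integrin-linked pseudokinase, with 9.14 and 8.61 (0.52). PXN and FERMT1 thus differed by similar amounts in opposite directions, each past the spread of its expression bin.

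Of collagen folding and cross-linking enzymes, 20 of 24 were above the floor, with a median of 0.06, none 2-fold higher (1.05% of all genes) and 1 lower (3.79% of all genes). PCOLCE2, an enhancer of procollagen cleavage, stood at 5.05 and 6.41 (-1.37) in its only probe set. SERPINH1, the collagen chaperone HSP47, was lower with 7.87 and 8.67 (-0.81), and LOXL3, a lysyl oxidase, with 6.37 and 6.97 (-0.61). P4HA1, a prolyl hydroxylase subunit, was higher with 9.49 and 8.90 (0.59). Genes of this list therefore differed in both directions.

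Outside the cell, the 8 compared of 16 other basement membrane proteins stayed within -0.19 and 0.39, with a median of 0.04 and none past the spread. Among 8 compared of 20 other integrin ligands, with a median of 0.15, THBS1 was the one 2-fold lower. THBS1, the matrix protein thrombospondin 1, stood at 5.79 and 6.94 (-1.16), and its next probe sets differed by -1.20 and -0.56. ICAM1, a ligand of the leukocyte integrins, was higher with 9.18 and 8.21 (0.98). CCN2, the matricellular protein CTGF, was lower with 5.53 and 5.98 (-0.45). CDH1, which encodes the E-cadherin bound by ITGAE, stood at 10.66 and 11.11, and FN1, fibronectin, at 4.82 and 4.66.

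Of 13 other matrix receptors 11 were compared, with a median of -0.12, and CD47, a receptor of thrombospondin that associates with alpha V integrins, was 2-fold lower. It stood at 8.89 and 10.18 (-1.30), but 2 of its 7 probe sets were higher, and the mean was -0.50. SDC1, an epithelial syndecan, stood at 7.48 and 7.89. Of 31 matrix proteases and inhibitors 22 were compared, with a median of 0.14, and TIMP2, an inhibitor of metalloproteases, was 2-fold lower with 8.67 and 9.88 (-1.20). PLAU, the urokinase, was higher with 7.76 and 7.23 (0.54) and its receptor PLAUR with 8.51 and 8.003 (0.50). Of 4 compared hemidesmosome partners, with a median of 0.05, DST, the plakin dystonin, was lower with 7.40 and 7.97 (-0.56), while the mean over its probe sets was -0.14. PLEC, plectin, which binds the tail of ITGB4, stood at 7.44 and 7.19.

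**Figure D4:**
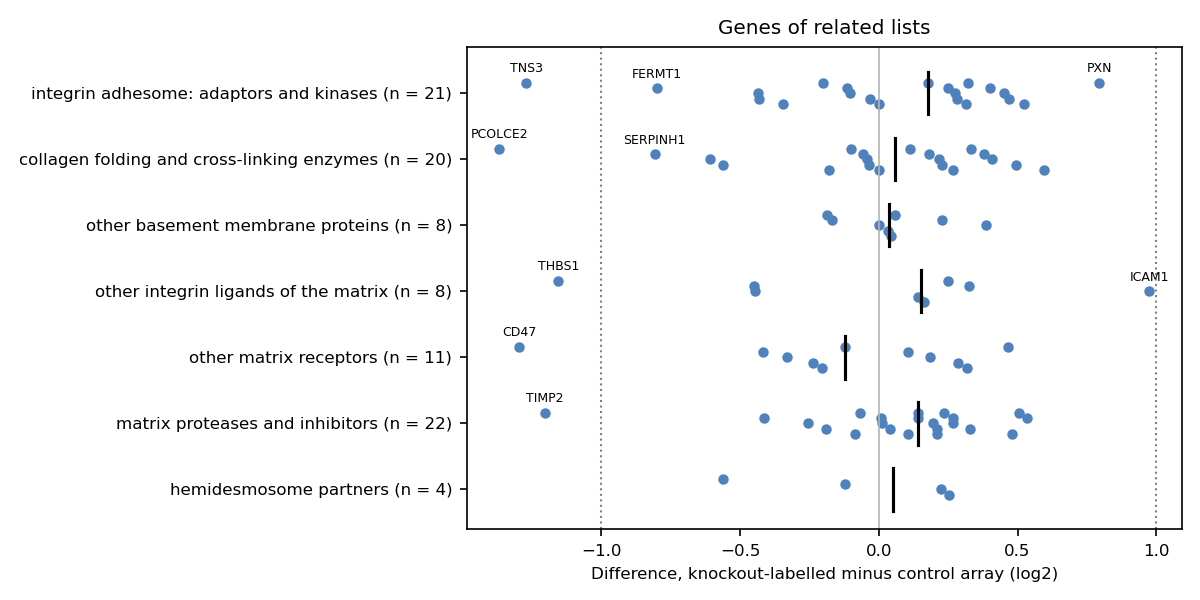
Difference in log2 RMA value (x axis), knockout-labelled minus control array and relative to the other genes, for the compared genes of 7 related lists, with the median of each list as a black bar and dotted lines at 2-fold. The medians lie between -0.12 and 0.18, and TNS3, PCOLCE2, THBS1, CD47 and TIMP2 lie past the lower dotted line, which holds for this scaling and not for one on the poly-A spike-ins.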

How the data were processed

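Per the submitters' processing notes, the authors made log2 expression values with RMA (no version is given in the sources used here), which corrects background, quantile-normalises the arrays and gives 1 log2 value a probe set. Quantile normalisation removes differences in total RNA, and RMA compresses differences of dim probe sets. The sources used here do not say which arrays were normalised together. Of 54613 non-control probe sets, the platform annotation paired 41091 with a single gene, 1801 with several and 11721 with none. The last 2 kinds gave no gene value. Of the probe sets with several symbols, 5 carried a name of these families. Those with no symbol could not be assigned to a family and were not counted. Symbols were checked by Entrez identifier against RefSeq (GRCh38.p14), where 41037 matched and none changed.

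The gene table was computed with Python 3.11.15 and pandas 2.3.3 and tested on simulated data. No test was possible with 1 array a group, and precision is limited by the number of arrays. Integrin and laminin genes above the floor are all named. The rule named collagen chains with a difference of at least 0.5, and the values of the other compared chains were added after they were seen. From each related list at most 4 of the genes with the largest difference and both values above the floor are named, and in general those with a difference of at least 0.5. CCN2, CDH1, FN1, SDC1 and PLEC were added after their values were seen. The members and lists were chosen with earlier results of these data known. Alternatives were no floor, a floor of 6.60 (the 75th percentile), the mean over all probe sets per gene, dropping those marked _s_at or _x_at (which can match several transcripts or genes), a loess trend removed (span 0.3), centring, poly-A scaling, raising dim values to the floor, adding 64 linear units, and thresholds of 1.5-fold and 3-fold.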

Additional observations from a re-analysis of the deposited data

How the results depend on the processing

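The counts and medians of the families kept close to their values with no floor, with the intensity trend removed, with centring, and with dim values raised to the floor. Poly-A scaling moved the medians to 1.21 for integrins, 1.28 for laminins and 1.29 for collagens, with 15, 6 and 10 genes 2-fold higher and 1 collagen lower, beside a median of 1.22 over all genes. With it 9137 of all genes were higher and 44 lower (0.479% of those past 2-fold), against 135 and 487 (78.3%). With the higher floor the collagen median was 0.25 over 5 chains, with 1 lower. As the mean of probe sets no collagen was 2-fold higher and 0 were lower, and the same counts of 0 and 0 held with 64 linear units added. Without probe sets marked _s_at or _x_at the laminin median was -0.17 over 3 chains, 1 integrin (ITGB5, 1.19) was higher, and 0 collagens were higher and 1 lower. COL6A1 then stood at -0.56. At 1.5-fold 1 integrin was higher and 1 lower, and at 3-fold 1 collagen was lower. Over all genes, adding 64 units left 46 higher and 117 lower, the mean of probe sets 83 and 330, 1.5-fold 749 and 1349, and 3-fold 25 and 133. Of the compared integrin, laminin and collagen genes, none past 2-fold changed sign under these alternatives. The genes of the related lists were not rerun one by one, and those named as lower by less than 1.19 (THBS1, for example) lie above 0 on the poly-A scale. No paired analysis was possible because each group has 1 array. Depth has no counterpart on an array, and values under the floor have no order.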

Other observations

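Some probe sets had the same value on both arrays to every deposited digit. This held for 3678 of 54613 non-control probe sets (6.73%) and for 21 of the 226 probe sets of the genes described here (9.29%). The representative probe sets of 5 of the 90 genes were among them, those of COL24A1, COL4A1, COL4A3, LAMA1 and ITGA10. Of these, ITGA10 alone was above the floor, and 253 of the 12841 compared genes shared the pattern.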
